A study of Mus musculus with 6 samples.

Results

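The collagen chain family of mouse was examined in lung tissue exposed to PM or to its vehicle. Members were the genes whose symbol reads Col, a type number, the letter a and a chain number, and 44 of the 23238 gene symbols in the count tables matched. RNA sequencing had been done on lung of wild-type mice given PM or Veh (PBS), both by the route labelled i.t., with 3 samples in each group and an exposure that the series title calls chronic. The labels do not spell out PM, and the sources used here do not give dose, duration, strain, age, sex or whether each sample is a separate animal. The p-values below therefore reflect no more than the spread among these libraries, which may be technical. The study asked how PM exposure changes gene expression in the lung. PBS replicate 2 held the same value as PBS replicate 1 in each of its 23282 entries, while PBS replicates 1 and 3 shared a value in only 229 of 14136 entries where either had 10 counts or more. This pair of identical tables entered as 1 sample, and that left 2 PBS libraries (replicates 1 and 3) and 3 PM libraries.

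Collagens are trimers of chains wound into a triple helix, which requires glycine to return at a fixed spacing of 3 residues. Fibrillar collagens form the tensile fibres of airway and vessel walls, type IV chains form the sheet of basement membranes on which alveolar epithelium and capillaries lie, and type VI forms beaded filaments around cells. In the lung most fibrillar collagen is made by fibroblasts, and its excess marks fibrosis.

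The glycine repeat can be read in the coding sequence as a GGN codon that opens each set of 3 codons. Stretches of 5 chains are shown 5′ to 3′ from GENCODE M21 transcripts (GRCm38), because they show how the repeat differs between a fibrillar chain and the type IV, type VI and transmembrane chains that the results turn on. Capitals mark the GGN codons of the repeat. The Col1a1, Col6a1 and Col13a1 stretches open the longest unbroken repeat of each chain, and the Col4a4 and Col4a3 stretches span a place where the repeat is broken:
Col1a1: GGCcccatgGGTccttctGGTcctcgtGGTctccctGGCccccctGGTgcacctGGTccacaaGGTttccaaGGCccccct
Col6a1: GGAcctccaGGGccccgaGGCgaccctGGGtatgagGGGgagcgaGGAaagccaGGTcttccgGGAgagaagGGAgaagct
Col13a1: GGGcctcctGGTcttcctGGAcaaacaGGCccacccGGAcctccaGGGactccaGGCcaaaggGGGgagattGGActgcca
Col4a4: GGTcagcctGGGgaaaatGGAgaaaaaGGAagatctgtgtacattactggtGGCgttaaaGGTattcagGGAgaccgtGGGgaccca
Col4a3: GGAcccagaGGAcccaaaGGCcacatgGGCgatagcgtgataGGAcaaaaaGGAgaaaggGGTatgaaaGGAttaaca

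The break shown was 5 codons long in Col4a4 and 2 in Col4a3. Counting runs of at least 4 glycine triplets, the longest unbroken run held 338 triplets in Col1a1, 87 in Col6a1, 44 in Col13a1 and 45 in Col4a4. The 6 type IV chains had 21 to 26 breaks between runs each, and the 11 fibrillar chains 1 to 3. All 44 chains had a coding sequence that matched the annotated length.

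Total counts ranged from 7410200 to 8827202 over the 5 distinct libraries, and collagen chains took 16564 to 24488 of them. Levels are given as TMM-scaled CPM, counts brought to a common library total with the trimmed mean of M values, and per kilobase of the longest protein-coding transcript where chains are compared with each other. A chain without counts may still stand at up to 0.348 to 0.430 CPM, the floor of 3 counts per library, which covers counting error only. Sftpc, the surfactant protein that defines alveolar type 2 cells, stood at 9232 to 12218 CPM, and Ager, which marks alveolar type 1 cells, at 2368 to 3266 CPM.

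Of the 44 chains, 30 had enough counts to be tested. The 14 others held at most 21 counts over the 5 libraries. Among them were cartilage chains: Col2a1, Col9a1 and Col9a2 were at 0 counts in every library, and Col11a1, the partner of type II, had 1 count in all. Other chains of types XI and IX had a few counts. Col11a2 had 2 and 7 in PBS and 9, 3 and 0 in PM, and Col9a3 had 2 and 7 in PBS and 1, 0 and 6 in PM. Acan and Matn1, which define cartilage, were at 0 in at least 4 of the 5 libraries. Col10a1 had 2 counts in PBS replicate 3, 6 in PM replicate 1, 7 in PM replicate 2 and none elsewhere. Col25a1 had 8 counts each in PM replicates 1 and 3 and none elsewhere, which is too few for a comparison.

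Per kilobase, 5 chains took 62.6% to 72.3% of the family's summed level in each library. Col1a2, the second chain of type I collagen, was the highest at 105 CPM per kilobase in PBS and 108 in PM, followed by Col3a1 (58.8 and 73.8) and Col4a1 (59.8 and 49.8). Col4a2 (43.2 and 37.7) and Col1a1 (34.4 and 27.9) came next. Across libraries the ranges of Col3a1 and Col4a1 overlapped, so their order is not fixed by these data. Levels per kilobase also carry differences in transcript length and read coverage, so the order of all these chains is approximate. Fibrillar chains made up 45.9% and 45.3% of the family's summed level per kilobase in PBS, against 52.2%, 57.9% and 40.9% in PM. The PM libraries thus lay on both sides of PBS.

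**Figure D1:**
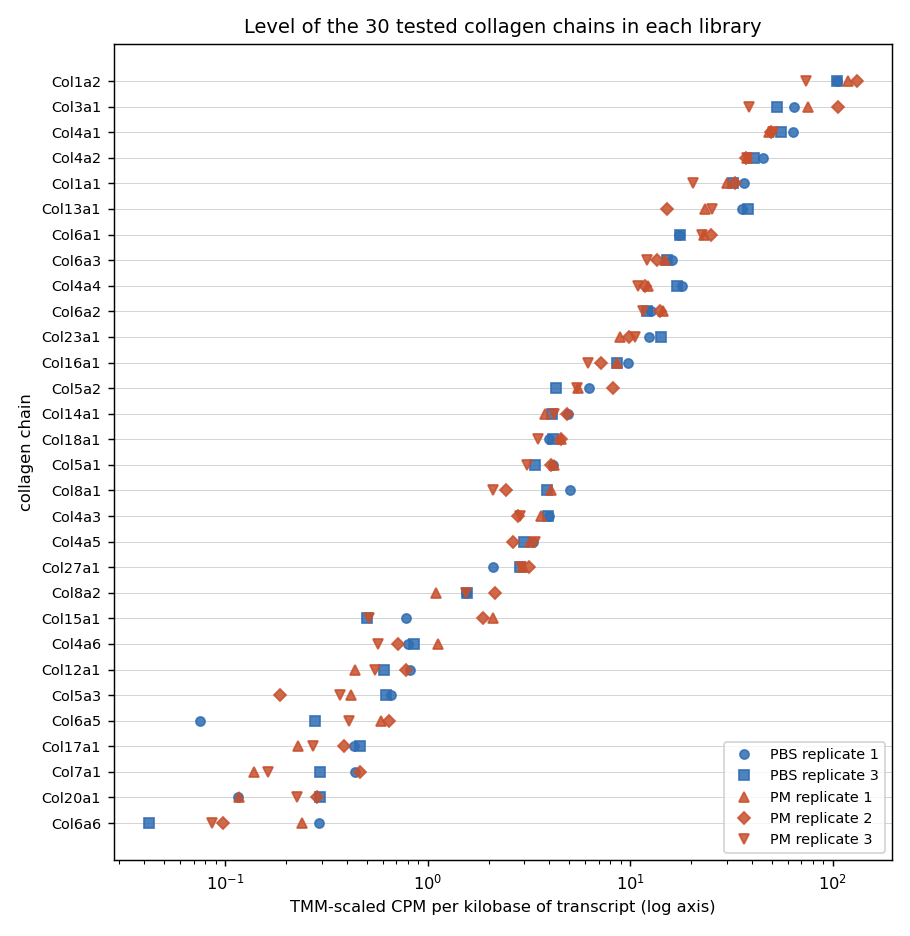
Each point is the level of a tested collagen chain in 1 library, in TMM-scaled CPM per kilobase of transcript on a log axis; blue marks PBS and red PM libraries. Col1a2, Col3a1 and Col4a1 lead, and the spread between PM libraries is widest among abundant chains for Col3a1, with PM replicate 3 lowest.

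None of the 30 tested chains passed the test of PM against PBS (two-sided quasi-likelihood test of edgeR, with a Benjamini-Hochberg adjusted p below 0.05 over 14057 genes), where 0.228% of all genes did. The type IV chain Col4a4 came nearest with an edgeR adjusted p of 0.053. At an unadjusted p below 0.05, 2 chains were higher, Col6a1 and Col6a5, against 7.26% of all genes, and 5 were lower, Col4a4, Col13a1, Col23a1, Col4a1 and Col8a1, against 6.05%. DESeq2 called 2 chains, Col4a4 and Col13a1, against 2.72% of all genes, and limma-voom called 0, against 0.121%. All PM libraries lay below all PBS libraries for 9 of the 30 chains, against 16.1% of all genes, and above them for 3, against 15.5%. The median log2 fold, PM minus PBS, was -0.14 over the 30 chains and 0.01 over all genes tested, and 18 of the 30 were negative, against 48.9% of all genes. How many chains passed depended on the setting. Without PM replicate 3 there were 3 (Col4a4, Col13a1 and Col15a1), against 3.06% of all genes. With all 6 tables as deposited there were 3 (Col4a4, Col13a1 and Col6a1), against 4.59%. That setting enters PBS replicate 1 again as PBS replicate 2, which understates the spread in PBS. With the replicate number as a block, where PM replicate 2 has no partner, there were 2, against 2.51%. Col4a4 alone passed with no filter on low counts, with a filter at 1 CPM in 2 libraries, and at an adjusted p below 0.10, where 1.53%, 0.56% and 1.47% of all genes did. None passed without PBS replicate 1 (0.00688% of all genes), PBS replicate 3 (0.0411%), PM replicate 1 (0.0867%) or PM replicate 2 (0.762%), nor with library totals only (0.363%), DESeq2 size factors (0.235%), non-robust estimation (0.164%) or Rn45s and haemoglobin genes left out (0.226%).

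The summed level of the family was 2838 and 2622 CPM in PBS, and 2674, 2911 and 2089 CPM in PM replicates 1, 2 and 3. In bulk tissue, fewer cells of a type and less RNA per cell cannot be told apart.

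**Figure D2:**
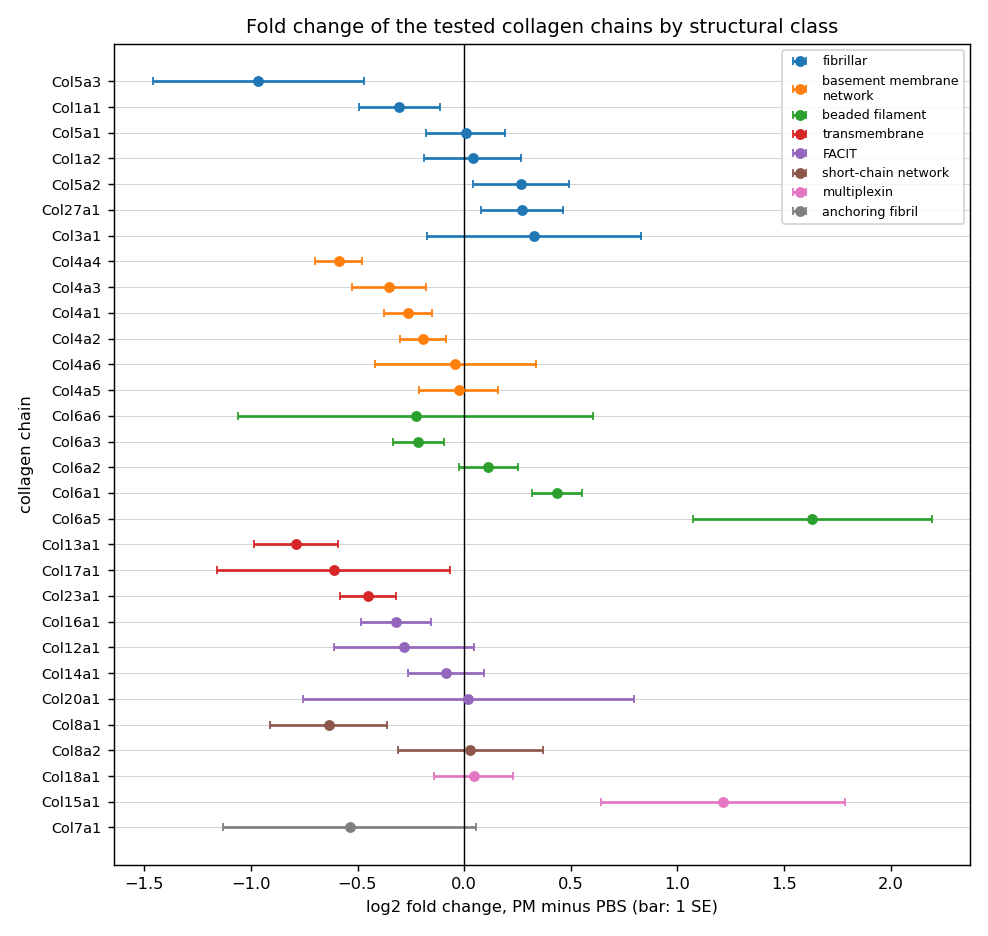
Points give the log2 fold change of each tested chain, PM minus PBS, with bars of 1 SE, coloured by structural class. All 6 basement membrane chains and all 3 tested transmembrane chains lie below 0, while Col6a5 (1.63) and Col15a1 (1.21) lie highest.

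The basement membrane chains are encoded as pairs of genes that start head to head on opposite strands. In GENCODE M21 the starts of Col4a3 and Col4a4 are 126 bases apart on chromosome 1, those of Col4a5 and Col4a6 are 1308 bases apart on chromosome X, and the first exons of Col4a1 and Col4a2 on chromosome 8 overlap by 22 bases. By the RefSeq coordinates the spans of Col4a3 (from 82586921) and Col4a4 (to 82587034) overlap as well. Neither the annotation used for counting nor its strand use is given, so reads in such overlaps cannot be assigned. Of the 6 chains, 4 had all PM libraries below all PBS libraries, against 16.1% of all genes, and none passed the test.

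Col4a4 (chromosome 1, 82448419 to 82587034, GRCm38), a chain of the mature network of alveolar and kidney basement membranes, stood at 183 and 173 CPM in PBS and 124, 120 and 111 CPM in PM. The groups did not overlap, and each was narrow, at 178 ± 6.81 and 118 ± 6.69 CPM (SD, n = 2 and n = 3). Its log2 fold was -0.59 ± 0.11 SE, or 33.5% lower in PM. edgeR's adjusted p of 0.053 missed the threshold. It ranged from 0.00138 to 0.444 over 15 other settings, and 6 of them called the chain. Among the 6 were DESeq2 (0.00138), all tables as deposited, which enter PBS replicate 1 again (0.0135), and PM replicate 3 left out (0.0262). The log2 fold of Col4a4 stayed between -0.63 and -0.54. Its head-to-head neighbour Col4a3 stood at 34.2 and 33.5 CPM in PBS and 31.2, 23.8 and 24.3 CPM in PM. PM replicate 1 was close to PBS, and the log2 fold of Col4a3 was -0.35 ± 0.17 SE (edgeR adjusted p = 0.415).

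Col4a1 (chromosome 8, 11198423 to 11312889), which with Col4a2 builds the basement membrane network found in all tissues, stood at 423 and 368 CPM in PBS and 323, 330 and 336 CPM in PM. The PM libraries were all lower, by a log2 fold of -0.26 ± 0.11 SE (unadjusted p = 0.0365, edgeR adjusted p = 0.329). Without PBS replicate 1 the log2 fold of Col4a1 was -0.16, since that library was the higher of the PBS pair. Col4a2 stood at 293 and 264 CPM in PBS and 243, 242 and 245 CPM in PM, a log2 fold of -0.19 ± 0.11 SE (edgeR adjusted p = 0.475). Col4a5 and Col4a6, the X-linked chains, overlapped between groups. Col4a5 averaged 20.5 ± 1.45 CPM in PBS against 20.2 ± 2.52 in PM, and Col4a6 5.51 ± 0.247 against 5.33 ± 1.92 CPM (SD, n = 2 and n = 3).

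The transmembrane collagens span the plasma membrane of the cell that makes them, and all 3 tested members had every PM library below every PBS library, against 16.1% of all genes. Col13a1 (chromosome 10, 61838234 to 61979206), which in the lung is known as a marker of alveolar matrix fibroblasts, stood at 113 and 121 CPM in PBS and 74.1, 47.9 and 80.7 CPM in PM. Its log2 fold was -0.79 ± 0.20 SE, 42.1% lower in PM, and edgeR gave an adjusted p of 0.129. PM replicate 2 was the lowest, and without it the log2 fold was -0.59 (edgeR adjusted p = 0.0532). Over 15 settings the adjusted p of Col13a1 ranged from 0.0146 to 0.666. DESeq2 called it at 0.0174. edgeR called it without PM replicate 3 at 0.0355. With the replicate block, in which PM replicate 2 has no partner, edgeR called it at 0.0146 with a log2 fold of -0.60. It was also called with all 6 tables, where PBS replicate 1 enters again, at 0.0445.

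Col23a1 (chromosome 11, 51289679 to 51583925) stood at 70.5 and 80.9 CPM in PBS and 50.4, 55.8 and 60.03 CPM in PM. Its log2 fold was -0.45 ± 0.13 SE (unadjusted p = 0.00591, edgeR adjusted p = 0.158). Col17a1, the collagen of hemidesmosomes that anchors basal epithelial cells, was rare, with 11 to 21 counts per library. It stood at 2.43 and 2.59 CPM in PBS and 1.29, 2.15 and 1.51 CPM in PM. Its log2 fold of -0.61 ± 0.54 SE was barely larger than its error (edgeR adjusted p = 0.68). Krt5, a defining marker of basal cells, had no counts in PBS and reached at most 0.252 CPM in PM.

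**Figure D3:**
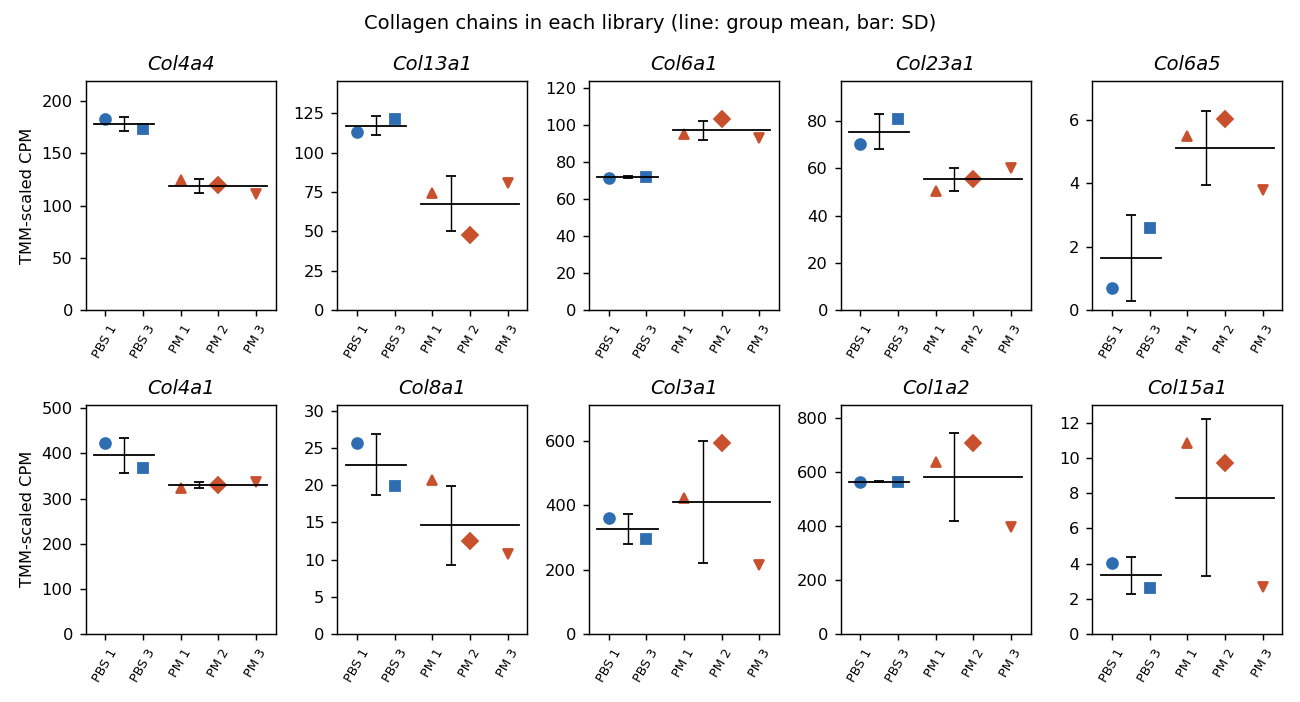
TMM-scaled CPM of the 7 chains with an unadjusted p below 0.05 and of Col3a1, Col1a2 and Col15a1 in each library, with axes from 0; lines are group means and bars SD. Col4a4, Col13a1, Col23a1 and Col4a1 are lower and Col6a1 and Col6a5 higher in every PM library, whereas Col3a1, Col1a2 and Col15a1 are high in PM replicates 1 and 2 and not in PM replicate 3.

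Type VI collagen is assembled from an α1, an α2 and a longer chain such as α3, and its tested chains had log2 folds of both signs, none past the test. Col6a1 (chromosome 10, 76708792 to 76726044) stood at 71.5 and 72.2 CPM in PBS and 95.1, 103 and 93.3 CPM in PM. The groups did not overlap, and the log2 fold was 0.44 ± 0.12 SE, 1.35-fold higher in PM (edgeR adjusted p = 0.131). It was called only with all 6 tables as deposited (0.0252), where PBS replicate 1 enters again. Over 15 settings its adjusted p ranged from 0.0252 to 0.662. Col6a2, its neighbour on chromosome 10, overlapped between groups at 59.0 and 56.2 CPM in PBS and 67.9, 65.1 and 53.8 CPM in PM (log2 fold 0.11 ± 0.14 SE).

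Col6a3, the α3 chain, stood at 164 and 153 CPM in PBS and 150, 138 and 122 CPM in PM, with a log2 fold of -0.21 ± 0.12 SE (edgeR adjusted p = 0.484). Col6a5, an alternative to α3, was rare: 6 and 21 counts in PBS and 47, 42 and 30 in PM, or 0.695 and 2.59 CPM against 5.49, 6.02 and 3.78 CPM. Its log2 fold of 1.63 ± 0.56 SE was the largest of the family (unadjusted p = 0.0136, edgeR adjusted p = 0.223). The fold rested on the PBS counts, and was 0.97 without PBS replicate 1 and 2.84 without PBS replicate 3. Col6a6 had 0.37 to 2.55 CPM with no separation of the groups.

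Fibrillar chains, of which 7 of 11 were tested, held the most of the family's level and showed no shared direction. Col1a1 (chromosome 11, 94936224 to 94953042), the major chain of type I collagen, stood at 217 and 191 CPM in PBS and 180, 196 and 121 CPM in PM. PM replicate 2 lay between the PBS libraries, and the log2 fold was -0.30 ± 0.19 SE (edgeR adjusted p = 0.532). Without PM replicate 3 it was -0.12. Col1a2 (chromosome 6, 4505618 to 4541543) stood at 563 and 564 CPM in PBS and 636, 707 and 396 CPM in PM. PM replicates 1 and 2 were above PBS and PM replicate 3 below, and the log2 fold was 0.04 ± 0.23 SE. It became 0.25 without PM replicate 3 and -0.12 without PM replicate 2, and -0.02 when libraries were scaled by their totals only.

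Col3a1 (chromosome 1, 45311538 to 45349706), the type III chain of elastic tissues, had the same order of PM libraries. It stood at 359 and 294 CPM in PBS and 423, 595 and 214 CPM in PM, so the highest and the lowest values of all libraries were both PM. The log2 fold was 0.33 ± 0.50 SE (edgeR adjusted p = 0.847), 0.64 without PM replicate 3 and -0.04 without PM replicate 2. PM replicate 3 was the lowest of the 5 libraries for 11 of the 30 chains, against 19.5% of all genes.

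The type V chains sit inside type I fibrils and limit their width. Col5a1 stood at 35.1 and 28.4 CPM in PBS and 35.4, 34.3 and 26.1 CPM in PM, and Col5a2 at 41.7 and 28.6 CPM in PBS and 36.6, 54.5 and 36.3 CPM in PM. Neither separated the groups. Col5a3, the rarest type V chain, had 35 and 31 counts in PBS and 22, 8 and 18 in PM. Every PM library lay below PBS for Col5a3, against 16.1% of all genes. Its log2 fold was -0.96 ± 0.50 SE (edgeR adjusted p = 0.437). Col27a1 was at 16.1 and 21.7 CPM in PBS and 22.4, 24.1 and 21.9 CPM in PM, where PBS replicate 3 and PM replicate 3 nearly met.

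Among the fibril-associated collagens with interrupted helices (FACIT), Col16a1 stood at 50.8 and 45.1 CPM in PBS and 45.1, 37.5 and 32.4 CPM in PM (log2 fold -0.32 ± 0.16 SE, edgeR adjusted p = 0.439). Col14a1, known from adventitial fibroblasts, averaged 29.3 ± 3.76 CPM in PBS against 27.7 ± 3.46 in PM, and Col12a1 8.21 ± 1.66 against 6.79 ± 2.04 CPM (SD, n = 2 and n = 3). Col20a1 had 5 to 12 counts per library. Groups overlapped for all 4 tested FACIT chains.

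Col8a1, a short-chain network collagen of vessel walls, stood at 25.7 and 19.9 CPM in PBS and 20.7, 12.5 and 10.7 CPM in PM. PM replicate 1 lay between the PBS libraries, and the log2 fold was -0.64 ± 0.27 SE (unadjusted p = 0.0418, edgeR adjusted p = 0.348). It was -0.98 without PM replicate 1. Its partner Col8a2 was at 6.72 and 6.79 CPM in PBS and 4.79, 9.32 and 6.68 CPM in PM. Col7a1, which forms anchoring fibrils under epithelia, had 35 and 22 counts in PBS and 11, 30 and 12 in PM.

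The multiplexins Col15a1 and Col18a1 join basement membranes to the matrix, and their C-terminal pieces restin and endostatin act on vessels. Col15a1 (chromosome 4, 47207655 to 47313167) stood at 4.06 and 2.59 CPM in PBS and 10.9, 9.75 and 2.65 CPM in PM. PM replicates 1 and 2 were well above PBS, and PM replicate 3 lay inside the PBS range. The log2 fold was 1.21 ± 0.57 SE (edgeR adjusted p = 0.404). Without PM replicate 3 it was 1.63, and the chain was called (edgeR adjusted p = 0.0377, in a range of 0.0377 to 0.888 over 15 settings). Col18a1 averaged 22.8 ± 0.769 CPM in PBS against 23.5 ± 3.32 in PM (SD, n = 2 and n = 3).

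Ratios between chains within a library do not depend on how libraries are scaled. Over 12 pairs, 10 of them of the same collagen type, ratios of counts per kilobase were compared with an exact permutation test, two-sided, which at 2 against 3 libraries cannot go below p = 0.2. The groups did not overlap for 8 of the 12 pairs. All 8 were at p = 0.2 in the exact permutation test and 0.3 after Benjamini-Hochberg adjustment over the pairs, so no ratio could pass. No share over other gene pairs was computed, and some pairs share a chain, so the count only describes these libraries. Ratios per kilobase also carry differences in transcript length and read coverage, and are compared between libraries only.

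Col6a3 to Col6a1 was 0.928 and 0.860 in PBS and 0.638, 0.541 and 0.531 in PM. The gap between groups was larger than the spread within them. On the log2 scale it was -0.16 ± 0.08 in PBS and -0.82 ± 0.15 in PM (SD, n = 2 and n = 3). Col6a1 to Col6a2 was 1.38 and 1.46 in PBS and 1.59, 1.80 and 1.97 in PM. Both ratios place Col6a1 higher against its partners in every PM library.

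Col1a1 to Col1a2, the chains of the type I trimer, was 0.348 and 0.306 in PBS and 0.255, 0.250 and 0.275 in PM. All 3 PM libraries were below PBS, also PM replicate 3, in which both chains were low. Col1a1 to Col3a1 was 0.567 and 0.610 in PBS and 0.398, 0.309 and 0.530 in PM. Col4a1 to Col4a2 was nearly constant, from 1.29 to 1.41 over the 5 libraries, and its groups did not overlap either. Col4a3 to Col4a4 was 0.221 and 0.229 in PBS and 0.297, 0.235 and 0.259 in PM. Col4a3 to Col4a5 was 1.21 and 1.31 in PBS and 1.14, 1.05 and 0.838 in PM. Col5a1 to Col5a3 was 6.22 and 5.33 in PBS and 9.82, 20.5 and 8.16 in PM, where Col5a3 had 8 to 22 counts. Col15a1 to Col18a1 overlapped between groups, at 0.199 and 0.123 in PBS and 0.463, 0.417 and 0.149 in PM.

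**Figure D4:**
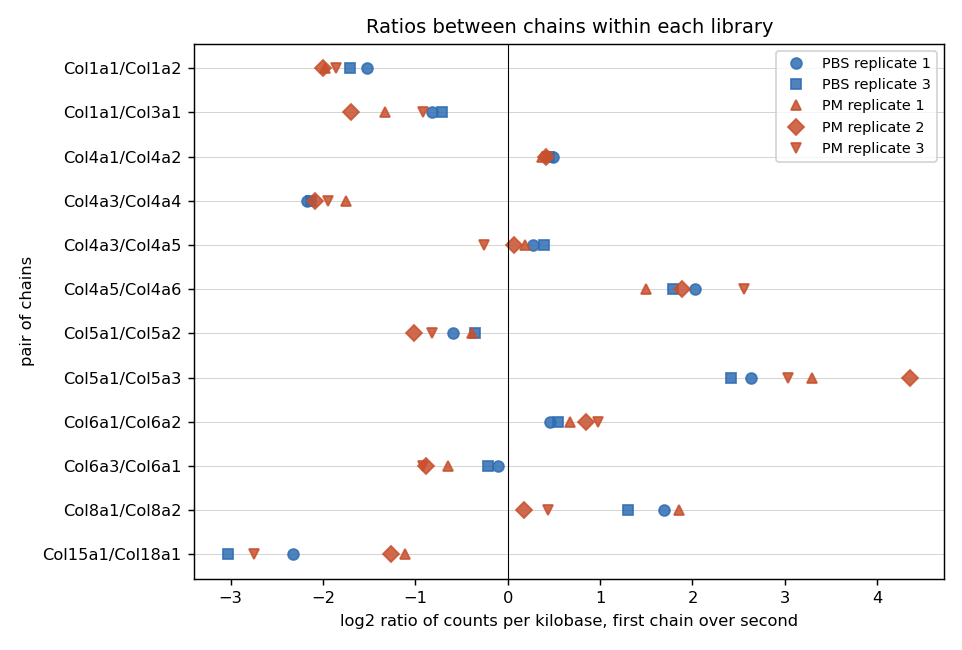
Each point is the log2 ratio of counts per kilobase of 2 collagen chains in 1 library, blue for PBS and red for PM. The libraries separate by group for Col6a3/Col6a1 and Col1a1/Col1a2, and within a narrow band also for Col4a1/Col4a2. They mix for Col4a5/Col4a6.

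Genes that fold, process, bind and break down collagen were followed in 7 lists. Of 117 genes listed, 102 were tested, of which 1 rose and 0 fell by edgeR, against 0.142% and 0.0854% of all genes. At an unadjusted p below 0.05, 7 were higher, against 7.26% of all genes, and 20 lower, against 6.05%. DESeq2 called 9, against 2.72% of all genes, and limma-voom 1, against 0.121%. All PM libraries lay below all PBS libraries for 32 of the 102 (31.4%, against 16.1% of all genes) and above for 10 (9.80%, against 15.5%).

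Breakdown and uptake genes had 11 tested members, 3 above and 1 below PBS in every PM library, against 15.5% and 16.1% of all genes. Of their log2 folds 5 were negative and 6 positive, from -0.79 to 2.58, with a median of 0.08. Their sum was 3504 and 3466 CPM in PBS and 3423, 3375 and 3617 CPM in PM. At an unadjusted p below 0.05, 2 members were higher (Ctsk and Mmp8) and 1 was lower (Mrc2), against 7.26% and 6.05% of all genes. DESeq2 called Mrc2, against 2.72% of all genes, and edgeR's main test did not. Mrc2 was named after its values were seen. Ctsk, the lysosomal protease that cleaves triple-helical collagen, was the pathway gene that rose. It had 145 and 81 counts in PBS and 378, 395 and 379 in PM. Its level went from 13.4 ± 4.81 to 49.5 ± 6.40 CPM (SD, n = 2 and n = 3). Its log2 fold was 1.88 ± 0.23 SE (edgeR adjusted p = 0.014). The call was lost without PBS replicate 1 (log2 fold 2.31, edgeR adjusted p = 0.0591) and without PBS replicate 3 (1.56, 0.0883), in a range of 1.8e-10 to 0.0883 over 15 settings. Mmp8, a neutrophil collagenase, stood at 5.91 and 4.32 CPM in PBS and 12.3, 15.0 and 24.1 CPM in PM (log2 fold 1.74 ± 0.33 SE, edgeR adjusted p = 0.053). Macrophage markers were higher beside these proteases: their sum was 739 and 809 CPM in PBS and 1178 to 1260 CPM in PM, and 7 of 10 markers lay above PBS in every PM library, against 15.5% of all genes. None of the 10 passed edgeR's test, 5 had an unadjusted p below 0.05, and DESeq2 called 2. Cd68 stood at 15.2 and 24.4 CPM in PBS and 45.3, 62.5 and 39.1 CPM in PM, and Mrc1 had a log2 fold of 0.54 ± 0.14 SE. The part of macrophage number in the level of Ctsk was not tested.

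Fibril-associated proteins coat collagen fibrils and set their spacing, and 9 of 16 tested had all PM libraries below all PBS libraries, against 16.1% of all genes, with 1 above and a median log2 fold of -0.32. Bgn, the small leucine-rich proteoglycan biglycan, stood at 625 and 577 CPM in PBS and 417, 405 and 405 CPM in PM (log2 fold -0.56 ± 0.11 SE, edgeR adjusted p = 0.053). Prelp, which links collagen to basement membrane, stood at 165 and 155 CPM in PBS and 112, 94.6 and 110 CPM in PM (-0.60 ± 0.12 SE, edgeR adjusted p = 0.0565). Over 15 settings the adjusted p ranged from 0.000253 to 0.506 for Bgn and from 0.00381 to 0.485 for Prelp. It was lowest by DESeq2 and highest without PBS replicate 1.

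Laminins and other basement membrane partners of type IV collagen had 7 of 14 members below PBS in every PM library and 0 above, against 16.1% and 15.5% of all genes, with a median log2 fold of -0.23. Lamb1, the laminin β1 chain, stood at 123 and 121 CPM in PBS and 83.9, 78.0 and 87.3 CPM in PM (log2 fold -0.55 ± 0.11 SE, edgeR adjusted p = 0.0605). Lama3, the laminin α3 chain, stood at 41.5 and 35.2 CPM in PBS and 25.5, 25.9 and 25.9 CPM in PM (-0.57 ± 0.16 SE, edgeR adjusted p = 0.14). Over 15 settings the adjusted p of Lamb1 ranged from 0.0072 by DESeq2 to 0.484 without PBS replicate 1.

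Among processing and crosslinking genes (13 tested, 4 below and 1 above PBS in every PM library against 16.1% and 15.5% of all genes, median -0.18), Pcolce2, an enhancer of procollagen C-propeptide cleavage, stood at 359 and 388 CPM in PBS and 204, 169 and 262 CPM in PM. Its log2 fold was -0.82 ± 0.16 SE (edgeR adjusted p = 0.0648), in a range of 0.00151 to 0.484 over 15 settings, with the highest value without PBS replicate 3. The crosslinking transglutaminase Tgm2 had a log2 fold of -0.35 ± 0.12 SE. Folding and secretion genes had 20 tested members, 2 of them above and 2 below PBS in every PM library (against 15.5% and 16.1% of all genes), with a median of 0.11. Colgalt2, which glycosylates collagen, had a log2 fold of -0.69 ± 0.18 SE, and P3h4, a member of the lysyl hydroxylation complex, of -0.53 ± 0.16 SE.

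Collagen receptors had 10 tested members, 4 of them below and 0 above PBS in every PM library, against 16.1% and 15.5% of all genes, with a median of -0.06. Itga1, the α subunit of integrin α1β1, which binds type IV collagen, stood at 55.2 and 56.2 CPM in PBS and 34.5, 40.4 and 24.8 CPM in PM (log2 fold -0.75 ± 0.19 SE, edgeR adjusted p = 0.114). Over 15 settings its adjusted p ranged from 0.00587 with the replicate block to 0.608 without PBS replicate 3. Ddr2, a receptor for fibrillar collagen, had a log2 fold of -0.39 ± 0.11 SE. Of 18 tested genes that signal for matrix production, 3 lay above and 5 below PBS in every PM library. Over all genes the shares were 15.5% and 16.1%. Their log2 folds ran from -0.44 to 0.73 with a median of -0.03, and Pdgfb, a growth factor for mesenchymal cells, was at -0.44 ± 0.14 SE.

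Markers of cells that make these chains were read in the same libraries. The sum of 10 alveolar fibroblast markers was 6667 and 6409 CPM in PBS and 4676, 3789 and 4205 CPM in PM, and 9 of the 10 lay below PBS in every PM library, against 16.1% of all genes. In that list Limch1 fell (log2 fold -0.71, edgeR adjusted p = 0.0379), a call lost without PBS replicate 1, PBS replicate 3 or PM replicate 1 (0.444, 0.293 and 0.0945), with library totals only (0.0653), by limma-voom (0.0521) and with non-robust estimation (0.071). Pdgfra, the receptor that defines these fibroblasts, had a log2 fold of -0.78 and did not pass. The part of these cells in the lower Col13a1 and Col23a1 values was not tested.

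Endothelial markers summed to 2297 and 2510 CPM in PBS and 1718 to 2030 CPM in PM, with 7 of 10 below PBS in every PM library against 16.1% of all genes, and alveolar type 1 markers to 6944 and 7120 CPM in PBS and 5360 to 5845 CPM in PM, also with 7 of 10 below. Both cell types lie on the type IV network, and their part in the lower Col4a4 and Col4a1 values was not tested. Tie1, an endothelial receptor, had a log2 fold of -0.62 (edgeR adjusted p = 0.053) and Ager of -0.41 (0.147). Adventitial fibroblast markers (886 to 1047 CPM over all libraries) and mesothelial markers (396 to 520 CPM) had 1 of 10 and 3 of 8 members below PBS in every PM library, against the same 16.1%. The named members of these lists were Cdh5 (log2 fold -0.39 ± 0.11 SE), Akap5 (-0.51 ± 0.12), Clec3b (-1.19 ± 0.24), Mfap5 (-0.29 ± 0.19), Lrrn4 (-0.42 ± 0.16) and Gpm6a (-0.21 ± 0.11). edgeR called none of these 6, and DESeq2 called Akap5 and Clec3b (adjusted p = 0.0139 and 0.000219).

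Type 2 cell markers summed to 20295 to 26798 CPM over all libraries, with 4 of 10 above PBS in every PM library against 15.5% of all genes, among them Lyz2 (log2 fold 0.55 ± 0.17 SE), which macrophages also express, and Sftpd (0.88 ± 0.26). Basal cell markers summed to 4.52 to 8.3 CPM and skeletal muscle markers to 6.91 to 18.3 CPM, and their named members, Aqp3 (1.61 ± 0.99), Dlk2 (-0.16 ± 0.44), Tnnt3 (0.93 ± 0.75) and Mylpf (-0.23 ± 0.63), did not pass. Cartilage markers, summed, were higher in every PM library, at 15.9 and 14.6 CPM in PBS and 40.2, 69.5 and 29.4 CPM in PM. That sum rested on Chad, a matrix protein of cartilage and airway (log2 fold 1.66 ± 0.39 SE, edgeR adjusted p = 0.147), and 2 of 9 markers had enough counts to be tested, Sox9 being the other (1.58 ± 0.51).

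Myofibroblast markers summed to 583 and 402 CPM in PBS and 601, 709 and 447 CPM in PM, the order of PM libraries seen for Col3a1 and Col1a2. Of its tested members, 2 lay above PBS in every PM library and 2 below. Over all genes the shares were 15.5% and 16.1%. Spp1, osteopontin (log2 fold 0.84, edgeR adjusted p = 0.153), and Acta2, smooth muscle actin (0.61, 0.153), were higher, and Postn, the matrix protein periostin, was lower (-0.45, 0.192). Postn and Cthrc1 were named after their values were seen. Cthrc1, a marker of fibrotic fibroblasts, overlapped between groups at 1.13 to 3.15 CPM. The smooth muscle and pericyte markers summed to 505 and 444 CPM in PBS and 541, 582 and 426 CPM in PM. Their named members were Acta2 (log2 fold 0.61) and Des, the muscle filament desmin (-0.74 ± 0.19 SE). The part of these cells in the spread of the fibrillar chains was not tested.

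**Figure D5:**
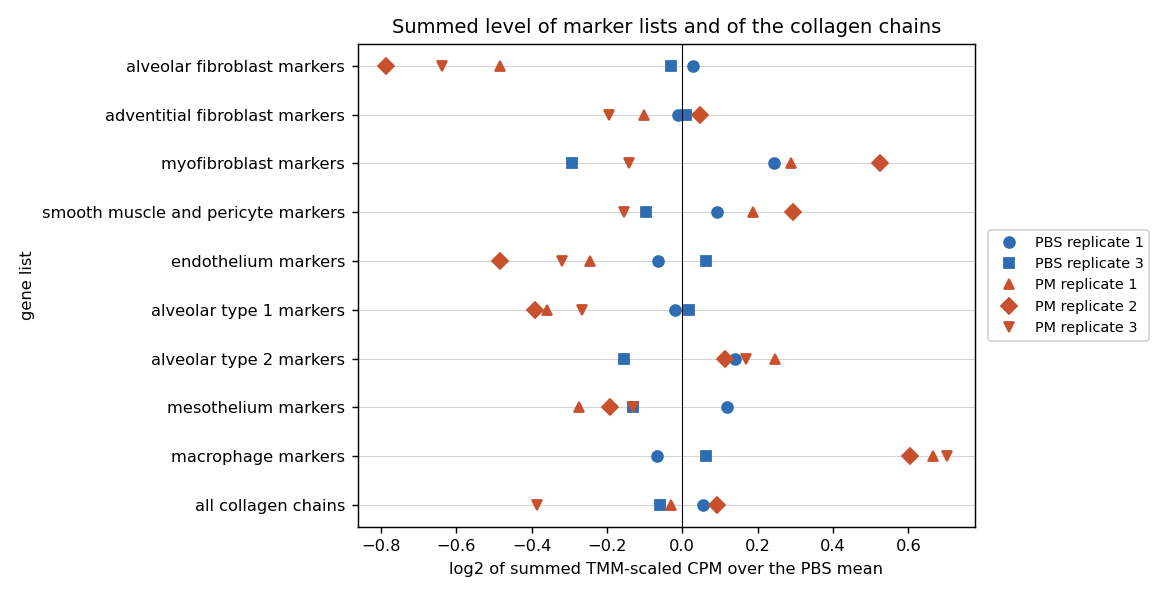
Summed TMM-scaled CPM of each cell marker list and of all collagen chains in each library, as log2 over the PBS mean; blue marks PBS and red PM. Alveolar fibroblast, endothelial and type 1 markers are lower and macrophage markers higher in all 3 PM libraries, while the collagen sum is lowest in PM replicate 3 (2089 CPM) and highest in PM replicate 2 (2911 CPM).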

How the data were processed

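Lung RNA was extracted with easy-BLUE and made into libraries with the SENSE mRNA-Seq kit of Lexogen, per the labels' protocols. Per the submitters' processing notes, TopHat, Cufflinks and the build mm10 (GRCm38) were named. The counting program, annotation, strand use and tool versions were not given in the sources used here. Whole-number counts per gene symbol are what the authors deposited, and these are not normalized. The 2 blank entries, with 0 counts, were left out, and of 79 entries that shared a symbol the one with the highest total per symbol was kept, which set 44 aside, no collagen among them.

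Counts were tested with edgeR 4.0.16 (filterByExpr, TMM, robust quasi-likelihood, no covariates) in R 4.3.3, with Benjamini-Hochberg adjustment over 14057 genes; SE is the log2 fold over the square root of F. Identical tables counted once. The procedure was tested on simulated data. Coordinates are RefSeq for GRCm38, lengths and coding sequences GENCODE M21. A ratio adds 0.5 counts to each chain. DESeq2 1.42.0, limma-voom 3.58.1, other scalings and filters, left-out libraries and a replicate block were tried. Of the 44 chains, values were given for those past the test or at an unadjusted p below 0.05, for the 2 highest of each structural class and for those in a ratio; of each other list, for called members and the 2 with the smallest p. Tested chains outside the rule are given too. A list gene that the rule names is not reported here. Members and lists were chosen with earlier results of these data known.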

Additional observations from a re-analysis of the deposited data

How the results depend on the processing

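No collagen chain was called by edgeR with DESeq2 size factors, library totals only, counts without Rn45s and haemoglobin genes or non-robust estimation, nor by limma-voom. The count was 1 with no filter on low counts, 1 with at least 1 CPM in 2 libraries and 1 at an adjusted p below 0.10 (Col4a4 each time, against 1.53%, 0.56% and 1.47% of all genes), 2 by DESeq2, 3 with all 6 tables as deposited (against 4.59%) and 0 to 3 with a library left out. The 3 without PM replicate 3 stood against 3.06% of all genes. The setting with all 6 tables enters PBS replicate 1 again and so understates the spread in PBS. Same-numbered libraries had correlations of -0.028 and 0.057 between their deviations from the group means. With 2 PBS libraries the PBS deviations mirror each other, so these values cannot show whether same-numbered libraries belong together. With the replicate number as a block, in which PM replicate 2 has no partner, 2 chains were called (Col4a4 and Col13a1, against 2.51%). The count of 1 among 102 pathway genes became 9 with no filter (1.53% of all genes), 3 with at least 1 CPM in 2 libraries (0.56%), 9 by DESeq2 (2.72%), 12 with the replicate block (2.51%), 13 with all 6 tables (4.59%), 8 at an adjusted p below 0.10 (1.47%) and 0 to 9 with a library left out (0.00688% to 3.06%). The number of chain pairs that did not overlap was 8 to 10, with no share over other gene pairs to set beside it.

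Of the refits of single chains, 334 kept direction and side of the threshold, 12 newly passed and 29 changed sign, 0 of these called. With library totals only the log2 folds were -0.0061 for Col18a1, -0.038 for Col5a1, -0.019 for Col8a2 and -0.020 for Col1a2. By limma-voom they were -0.00070 for Col5a1, -0.046 for Col8a2 and -0.0028 for Col1a2. With the replicate block they were -0.11 for Col3a1, -0.021 for Col18a1, -0.052 for Col5a1, -0.25 for Col8a2, -0.16 for Col1a2 and 0.070 for Col4a5, and with all 6 tables -0.038 for Col5a1. With a library left out they ranged from -0.035 to 0.64 for Col3a1, -0.018 to 0.16 for Col18a1, -0.21 to 0.053 for Col14a1, -0.14 to 0.17 for Col5a1, -0.24 to 0.24 for Col8a2, -0.12 to 0.25 for Col1a2, -0.37 to 0.16 for Col4a6 and -0.098 to 0.070 for Col4a5. Among list genes, Dlk2 ranged from -0.32 to 0.050 and Mylpf from -0.44 to 0.0041. The cause was not tested. With 2 PBS libraries, a single one decides much of the control mean, and chains with few counts have wide errors.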
